A study of Mus musculus with 40 samples.

Results

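The genes described here are 9 markers of the cells that wrap blood vessels, the pericytes of the capillaries and the smooth muscle cells of larger vessels, in mouse hearts after a coronary artery was closed. The pericyte group comprised Abcc9, Rgs5, Pdgfrb, Cspg4 and Notch3, and the contractile group comprised Myh11, Acta2, Tagln and Cnn1. They were taken by name as established markers, and all 9 were among the 11450 genes of the deposited table. All 9 also passed the filter on low values, which left 11390 genes. RNA had been sequenced in 40 libraries from 20 adult C57BL/6 mice whose left anterior descending coronary artery had been tied off for good. From every heart 1 library was made of the injured region, the scar, and 1 of an uninjured region away from the damage. There were 4 mice on each of days 3, 7, 14, 21 and 42 after ligation, so each of the 10 groups of region and day held 4 libraries. The uninjured libraries thus also came from operated hearts, and hearts without a ligation were not analysed here. No transgene, drug or genotype distinguished the groups, and the labels call the tissue cardiac muscle in both regions.

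Pericytes share the basement membrane of capillary endothelium and are recruited there by platelet-derived growth factor, which endothelial cells make as Pdgfb and pericytes sense through the receptor Pdgfrb. Notch3 is the Notch receptor of mural cells, the joint name for pericytes and smooth muscle, and is activated by Jag1 on neighbouring cells. The contractile genes are switched on by serum response factor (Srf) with its partners myocardin and the MRTF proteins, through DNA elements called CArG boxes. In the heart, several of these markers are not private to vessels. Abcc9 also serves the potassium channels of cardiomyocytes, Pdgfrb is found on fibroblasts, and Acta2, Tagln and Cnn1 are made by myofibroblasts, the contractile fibroblasts of a healing wound.

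Recovered whole reads totalled 10966454 to 22778788 per library. The members had ample depth: Cnn1, the lowest, had 18 to 939 reads per library with a median of 166, and Rgs5 had 3918 to 28543 with a median of 15895. Values are RPKM, reads scaled by gene length and library size. The library sizes behind the deposited RPKM were not proportional to the recovered totals. That total over the implied size, set to 1 in one injured day 3 library, was 0.967 to 1.07 in injured and 1.19 to 1.48 in uninjured libraries. Scaling to the recovered totals moved the median log2 difference of all genes tested between the regions to 0.47, 0.26, 0.36, 0.39 and 0.37 on the 5 days, against 0.06, 0.05, 0.03, 0.03 and 0.03 as deposited. Every regional difference of a member kept its sign and its call under that scaling. B labels were given to the day 42 animals and A labels to all others, and the labels do not say what the letters stand for, so anything they mark cannot be told apart from day 42. Where an animal label such as A10 appears under a pair of days, it names different mice. The labels give no sex, and Xist was above 1 RPKM in 10 of the 20 mice.

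The promoter of Acta2 is shown because it holds CArG-like boxes, with those of Cnn1, Abcc9 and Rgs5 beside it because Cnn1 had the same regional direction as Acta2, and Abcc9 and Rgs5 had the opposite one. Sequences are from RefSeq (GRCm38.p6) and run 5′ to 3′ on the gene's strand; bases inside annotated first exons were left out, except for 30-base stretches in Acta2. Capitals mark matches to 3 motifs searched on both strands: a CArG-like box (CC, then 6 bases of which at least 5 are A or T, then GG), the MCAT element CATTCC and the RBPJ site TGGGAA. The 2 Acta2 stretches lie at chr19:34255438-34255467 and chr19:34255388-34255417, minus strand, at bases -94 to -65 and -44 to -15 from the RefSeq start. In GENCODE M21 a longer Acta2 transcript starts upstream, so that both lie in its first exon.
Acta2 upstream stretch: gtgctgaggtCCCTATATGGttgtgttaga
Acta2 downstream stretch: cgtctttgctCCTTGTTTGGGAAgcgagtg
Cnn1 (chr9:22099003-22099215, plus strand): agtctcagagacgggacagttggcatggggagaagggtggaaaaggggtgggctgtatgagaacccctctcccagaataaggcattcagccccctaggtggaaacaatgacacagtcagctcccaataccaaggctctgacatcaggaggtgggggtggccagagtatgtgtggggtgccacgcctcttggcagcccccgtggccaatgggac
Abcc9 (chr6:142702316-142702524, minus strand): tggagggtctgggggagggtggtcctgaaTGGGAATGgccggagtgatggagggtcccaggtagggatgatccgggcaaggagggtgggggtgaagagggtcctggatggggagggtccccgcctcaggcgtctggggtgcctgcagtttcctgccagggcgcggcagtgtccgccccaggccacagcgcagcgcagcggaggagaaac
Rgs5 (chr1:169655251-169655500, plus strand): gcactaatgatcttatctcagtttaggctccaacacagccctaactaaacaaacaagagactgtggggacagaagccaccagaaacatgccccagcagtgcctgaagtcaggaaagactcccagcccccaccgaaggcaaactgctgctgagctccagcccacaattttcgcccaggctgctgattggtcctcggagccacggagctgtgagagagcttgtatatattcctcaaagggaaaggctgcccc
Acta2 held 2 CArG-like boxes in its 250 upstream bases, CCCTATATGG and CCTTGTTTGG, a MCAT element further upstream, and an RBPJ match that overlaps the second box. In Abcc9 an MCAT and an RBPJ match overlap each other. Neither Cnn1, Rgs5, Cspg4 nor Notch3 held a match in this window. Of 32851 mouse promoters of the same length, 8.59% held a CArG-like box, 12.6% an MCAT element and 21.6% an RBPJ site. RefSeq promoters were matched for 6 of the 9 genes, and those of Pdgfrb, Myh11 and Tagln are named only.

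Scar and uninjured tissue differed in every one of the 9 genes on every day, with a change of direction for 1 of them (limma on log2(RPKM + 1) with the mouse as a block, Benjamini-Hochberg adjusted p under 0.05 over all genes tested). Abcc9 and Rgs5 were lower in the scar on all 5 days. Pdgfrb, Cspg4, Notch3, Acta2, Tagln and Cnn1 were higher in the scar on all 5 days. Myh11 was lower in the scar on day 3 and higher from day 7 on. The 9 of 9 called stands against a background of 83.7% of all genes tested on day 3, 82.2% on day 7, 82.9% on day 14, 84% on day 21 and 79.2% on day 42, so that the count itself is not apart from that of most genes. By direction, the share of all genes higher in the scar was 44.1%, 43.6%, 42.4%, 43.1% and 40.5% on the 5 days, and the share lower was 39.6%, 38.7%, 40.5%, 41% and 38.7%. Scaled to the recovered totals, day 42 had 6948 genes higher and 2732 lower in the scar, against 4611 and 4409 as deposited. In bulk tissue, fewer cells of a type and less RNA per cell cannot be told apart.

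**Figure D1:**
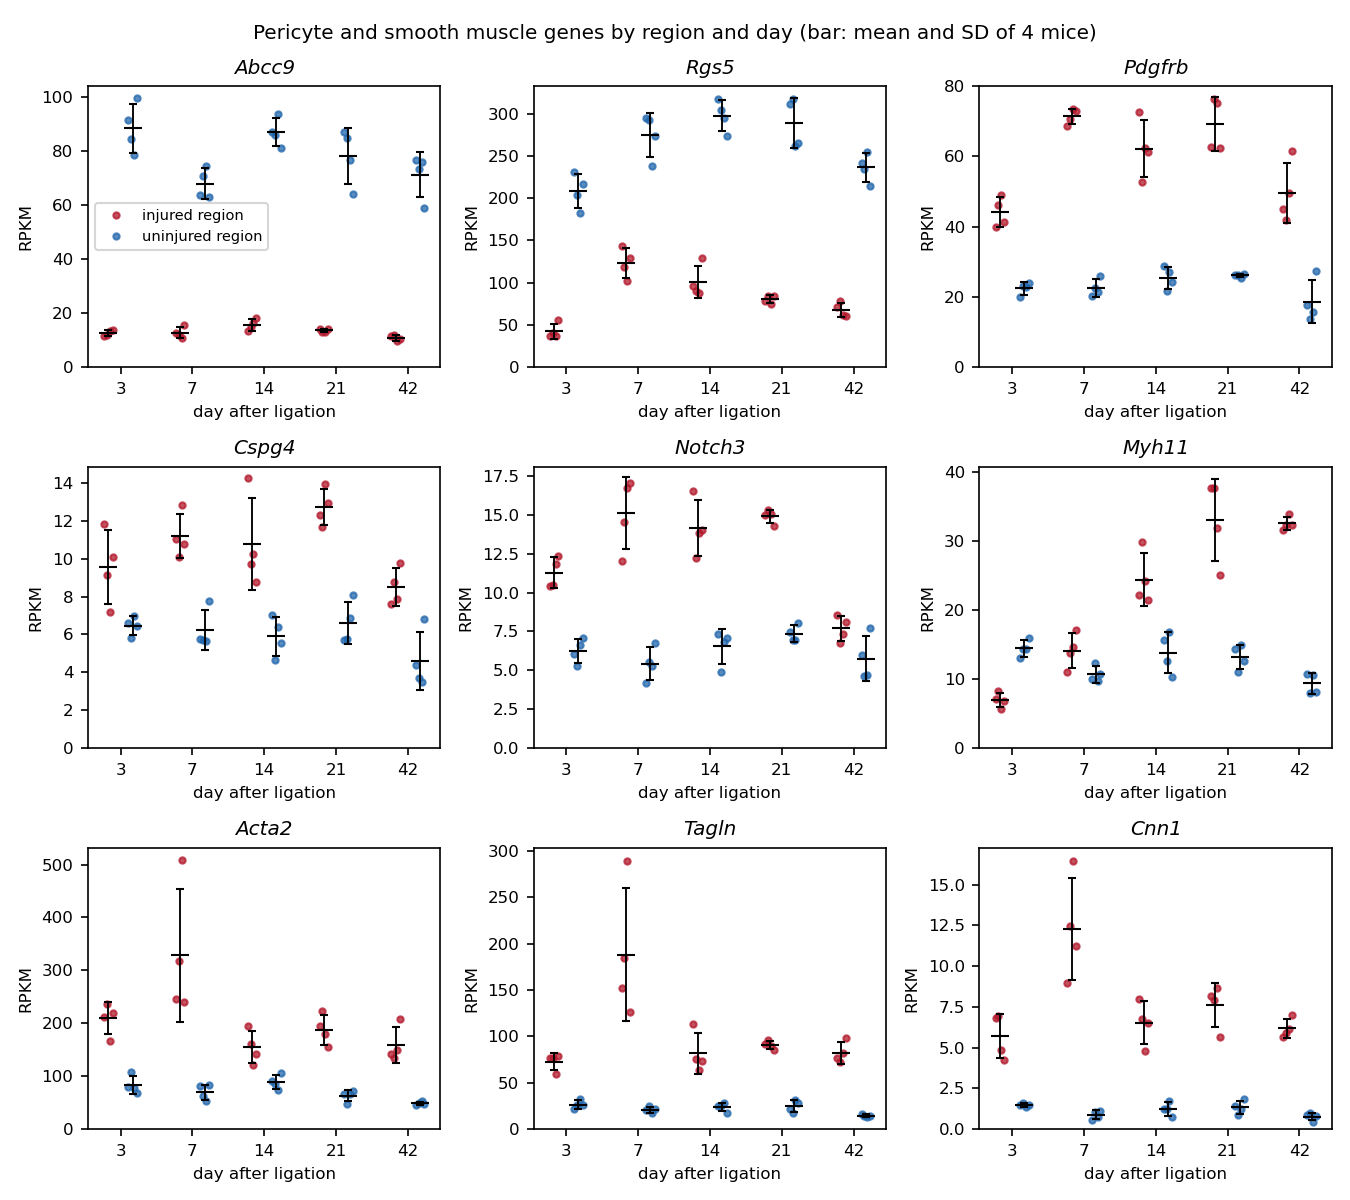
RPKM (y axis, from 0) of the 9 genes by day after ligation (x axis), with 1 point per mouse for the injured region (red, left) and the uninjured region (blue, right) and the mean ± SD of 4 mice in black. Abcc9 and Rgs5 lie lower in injured libraries throughout, Myh11 crosses from below to above, and Acta2, Tagln and Cnn1 have their highest injured values on day 7.

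Abcc9, which encodes the SUR2 regulatory subunit of ATP-sensitive potassium channels (chr6:142587862-142702315), was the member with the largest deficit in the scar on each day. Its injured libraries had 11.4, 11.9, 13.3 and 13.9 RPKM on day 3, against 91.4, 84.6, 78.5 and 99.6 RPKM in the uninjured libraries of the same mice, A4, A5, A7 and A8. On day 42 the injured libraries of B1, B3, B9 and B12 had 11.7, 12.01, 9.54 and 10.4 RPKM, against 76.6, 73.4, 75.8 and 58.9 RPKM in their uninjured libraries. All 20 mice had less Abcc9 in the scar, and the ranges over all days were far apart, 9.54 to 18.3 RPKM in injured and 58.9 to 99.6 RPKM in uninjured libraries. The log2 difference was -2.72 ± 0.11 (SE) on day 3 (adjusted p = 2.65e-15), -2.34 on day 7, -2.41 on day 14, -2.43 on day 21 and -2.60 ± 0.11 on day 42 (adjusted p = 2.16e-14). Mean RPKM was 7.03-fold lower in the scar on day 3 and 6.53-fold lower on day 42. No change of the difference over the days passed the test (F test of region by day, adjusted p = 0.15), with 74.3% of all genes passing it; after quantile normalization the adjusted p was 0.0229.

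The other channel genes were lower in the scar as well. The 3 partners fixed for Abcc9 were the pore subunits Kcnj8 (Kir6.1, typical of vessels) and Kcnj11 (Kir6.2, typical of cardiomyocytes) and the other regulatory subunit, Abcc8. All 3 were lower in injured than in uninjured tissue on all 5 days. Kcnj8 had 5.91 ± 1.91 RPKM in injured and 21.9 ± 1.57 RPKM in uninjured libraries on day 3 (SD, n = 4 each), a log2 difference of -1.76 ± 0.11 (SE, adjusted p = 4.76e-12). On day 42 it had 5.20 ± 0.36 RPKM in injured and 24.3 ± 1.94 RPKM in uninjured libraries (SD, n = 4 each), and no mouse on any day had more in the scar. Kcnj11 differed by -3.78 on day 3 and -1.81 on day 42 on the log2 scale, and Abcc8 by -2.35 and -1.06. In day 3 scars the 3 partners summed to 5.84 to 9.70 RPKM, with Kcnj8 alone at 3.97 to 8.39 RPKM. Kcnj11 and Abcc8 were thus low there, and the 1 RPKM added before the logarithm makes their day 3 differences understate the change. Most markers of cardiomyocytes were lower in the scar too. Their difference shrank from day 3 to day 42, as did those of Kcnj11 and Abcc8. That of Kcnj8 did not (-2.03 on day 42), and these trends were not compared in a test. Of 13 cardiomyocyte markers, 13 were lower in the scar on day 3 and 12 on each later day. Their median log2 difference was -4.28 on day 3 and -2.59 on day 42. Their summed level was 1726 to 3726 RPKM in injured and 34532 to 39053 RPKM in uninjured libraries on day 3, and 4946 to 8628 RPKM in injured and 32077 to 36647 RPKM in uninjured libraries on day 42. None of the 13 was at 0, and their part in the Abcc9 and channel gene differences was not tested.

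Rgs5, a regulator of G protein signalling long used to mark pericytes (chr1:169655501-169695813), was also lower in the scar, but its deficit was smaller on day 7 than on day 3. The injured libraries of day 3 had 37.1, 40.6, 36.2 and 55.1 RPKM, against 231, 203, 182 and 217 RPKM in the uninjured libraries of A4, A5, A7 and A8. On day 7 the injured libraries of A7, A9, A10 and A12 had 143, 118, 102 and 129 RPKM, against 294, 292, 238 and 274 RPKM in their uninjured libraries. The regions did not overlap on any day, and 0 of 20 mice had more Rgs5 in the scar. The log2 difference was -2.29 ± 0.11 on day 3, -1.16 ± 0.11 on day 7, -1.57 on day 14, -1.83 on day 21 and -1.79 on day 42 (adjusted p between 6.2e-14 on day 3 and 4.77e-09 on day 7), and it changed over the days (F test, adjusted p = 6.78e-05). The size of the deficit depended on the scaling: after quantile normalization it was -1.49 on day 3, -0.28 on day 7 (adjusted p = 0.0218), -0.55 on day 14, -0.78 on day 21 and -0.99 on day 42. Of 9 other RGS genes tested, 5 were higher and 3 lower in the scar on day 3. Among them, Rgs16 differed by 2.07 and Rgs19 by 1.62 on the log2 scale. Rgs4, another pericyte gene, picked out after its values were seen, differed by -1.16 on day 3 and by 1.12 on day 7.

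Pdgfrb, the receptor through which pericytes are recruited (on chromosome 18), was higher in the scar in 20 of 20 mice. Its injured libraries had 39.96, 46.3, 48.9 and 41.3 RPKM on day 3, against 19.9, 23.0, 22.7 and 24.0 RPKM in the uninjured libraries. On day 7 the injured libraries had 68.8, 70.7, 73.6 and 72.8 RPKM, against 20.3, 22.4, 21.2 and 26.0 RPKM in the uninjured libraries. The groups were apart on every day, and the 4 scars of day 7 lay within a narrow band. Log2 differences were 0.95 ± 0.08 on day 3, 1.63 ± 0.08 on day 7, 1.25 on day 14, 1.36 on day 21 and 1.40 on day 42 (adjusted p at most 5.05e-10), and the difference changed over the days (F test, adjusted p = 0.000449). Quantile normalization moved the day 21 difference to 2.01. On day 42 the mouse B12 had the highest Pdgfrb of both regions, 61.5 RPKM in the injured and 27.4 RPKM in the uninjured library, while the other 3 mice had 42.0 to 49.7 RPKM in injured and 13.6 to 17.7 RPKM in uninjured libraries.

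The ligands and other receptors of the family went several ways. Of 6 such genes, 5 were higher and 1 was lower in the scar on day 3, and 4 were higher and 1 was lower on each later day. Pdgfb, the ligand made by endothelium, had a log2 difference of 0.45 ± 0.10 on day 3 (18.7 RPKM in injured and 13.5 RPKM in uninjured libraries). The Pdgfb difference was -0.18 on day 7 (adjusted p = 0.11) and -0.42 on day 42 (7.30 RPKM in injured and 10.4 RPKM in uninjured libraries). Its day 42 ranges overlapped, 6.75 to 8.20 RPKM in injured and 6.26 to 13.5 RPKM in uninjured libraries. On day 3 Pdgfc was higher in the scar by 0.88, and Pdgfd, another ligand of Pdgfrb, had a difference of -0.96. The sister receptor Pdgfra, a marker of fibroblasts, was higher by 1.48 on day 42, and the receptor-like gene Pdgfrl by 3.02.

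Cspg4, which encodes the NG2 proteoglycan of the pericyte surface (chr9:56865033-56899870), had the smallest excess in the scar of the members that were higher there on day 3. Injured libraries had 11.9, 9.12, 7.21 and 10.1 RPKM on day 3, against 6.62, 5.83, 6.98 and 6.45 RPKM in uninjured libraries, and the lowest injured value was just above the highest uninjured one. On day 21 they had 12.3, 11.7, 13.9 and 12.95 RPKM, against 5.71, 5.74, 6.85 and 8.08 RPKM. The log2 difference was 0.49 ± 0.11 on day 3 (adjusted p = 0.000485), 0.76 on days 7 and 14, 0.86 on day 21 and 0.79 ± 0.11 on day 42 (adjusted p = 1.7e-06). It was positive in 20 of 20 mice, and a change over the days did not pass the test (F test, adjusted p = 0.235). Scaled to the recovered totals, the day 3 difference was 0.95, where the median of all genes was 0.47.

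Notch3 (chr17:32120820-32166852) was higher in the scar by an amount that was largest on day 7 and smallest on day 42. Injured libraries had 12.03, 14.6, 16.7 and 17.1 RPKM on day 7, against 4.21, 5.51, 5.25 and 6.78 RPKM in uninjured libraries. On day 42 they had 8.58, 6.76, 7.37 and 8.11 RPKM, against 5.97, 4.61, 4.68 and 7.73 RPKM in the uninjured libraries of B1, B3, B9 and B12, so that the groups overlapped although each mouse had more in its scar. Its log2 difference was 0.76 ± 0.07 on day 3, 1.32 ± 0.07 on day 7, 1.01 on day 14, 0.93 on day 21 and 0.39 ± 0.07 on day 42 (adjusted p = 6.62e-05). It changed over the days (F test, adjusted p = 2.75e-06). Scaled to the recovered totals, the day 42 difference was 0.77, where the median of all genes was 0.37.

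Around Notch3, other genes of the pathway were unevenly split between the regions. Of 24 tested, 17 were higher and 6 lower in the scar on day 3, with a median log2 difference of 0.62, against 44.1% and 39.6% of all genes; on day 42, 13 were higher and 8 lower, with a median of 0.18, against 40.5% and 38.7%. The ligand Jag1 had 14.5 ± 1.26 RPKM in injured and 5.52 ± 0.25 RPKM in uninjured libraries on day 3, and 13.8 ± 1.81 RPKM in injured and 5.42 ± 0.26 RPKM in uninjured libraries on day 42 (SD, n = 4 each). Its log2 difference lay between 1.20 and 1.56 over the days (adjusted p at most 3.99e-11). Heyl, a target gene of Notch in mural cells, also had its largest difference on day 7 and its smallest on day 42. It had 10.002 ± 0.534 RPKM in injured and 2.79 ± 0.42 RPKM in uninjured libraries on day 7 and 3.69 ± 0.32 RPKM in injured and 2.38 ± 0.62 RPKM in uninjured libraries on day 42 (SD, n = 4 each), log2 differences of 1.54 and 0.49. Notch2, the other Notch receptor of smooth muscle, was higher in the scar by 1.94 on day 42, as was the coactivator Maml2 by 1.54. The endothelial receptor Notch4 was higher by 1.62 on day 3, when the modifying enzyme Lfng was higher by 1.90; on day 42 Notch4 had a difference of -0.31.

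**Figure D2:**
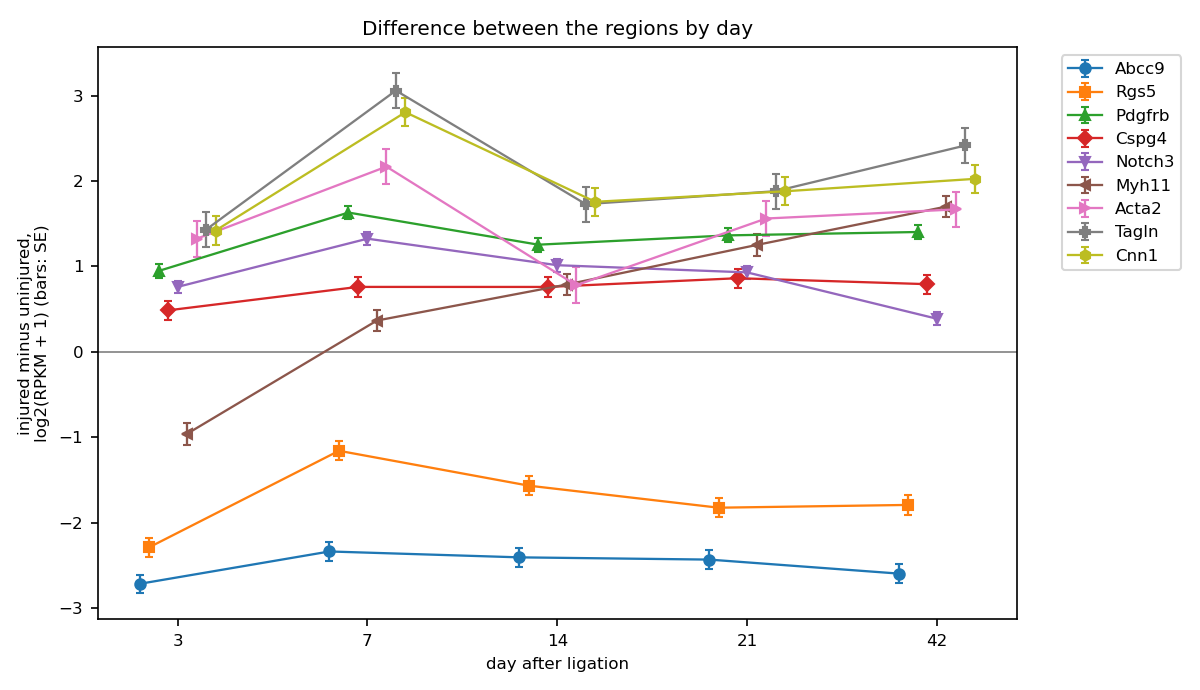
Difference between injured and uninjured libraries in log2(RPKM + 1) (y axis) by day after ligation (x axis) for each gene, with the standard error from the fit to 40 libraries. Abcc9 and Rgs5 lie below 0 on all days, Myh11 runs from -0.96 on day 3 to 1.70 on day 42, and Tagln and Cnn1 peak at 3.06 and 2.81 on day 7.

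Myh11, the smooth muscle myosin heavy chain and the member of the contractile group most limited to differentiated smooth muscle (chr16:14194535-14291372), changed direction. Injured libraries had 7.06, 8.29, 5.68 and 6.89 RPKM on day 3, against 13.01, 14.4, 14.4 and 16.0 RPKM in the uninjured libraries of A4, A5, A7 and A8. By day 42 they had 31.7, 32.4, 33.9 and 32.4 RPKM, against 10.8, 8.01, 10.6 and 8.21 RPKM in those of B1, B3, B9 and B12. The groups were fully apart on both days, in opposite order, and the spread of the day 42 scars was small (32.6 ± 0.96 RPKM, SD, n = 4). The log2 difference was -0.96 ± 0.13 on day 3 (0 of 4 mice higher in the scar, adjusted p = 4.88e-07), 0.37 ± 0.13 on day 7 (4 of 4 mice, adjusted p = 0.0119), 0.79 on day 14, 1.25 on day 21 and 1.70 ± 0.13 on day 42 (4 of 4 mice, adjusted p = 9.16e-11). The change over the days had the smallest adjusted p of the 9 genes (F test, 1.73e-09). On day 7 the groups overlapped, and the call was lost without mouse A10 (0.31, adjusted p = 0.0655) or without mouse A12 (0.28, adjusted p = 0.0854). Scaled to the recovered totals, the day 3 difference was -0.48 and the day 7 difference 0.60, beside all-gene medians of 0.47 and 0.26.

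Acta2, the smooth muscle actin, was higher in the scar on every day and highest on day 7 (chr19:34241090-34255590). Injured libraries had 213, 237, 166 and 220 RPKM on day 3, against 80.2, 108, 76.8 and 69.0 RPKM in uninjured libraries. On day 7 the injured libraries of A7, A9, A10 and A12 had 246, 318, 508 and 241 RPKM, against 80.8, 63.2, 53.1 and 82.6 RPKM. Mouse A10 thus had both the highest scar value and the lowest uninjured value of that day. On day 14 the injured libraries had 195, 162, 122 and 143 RPKM, against 91.6, 85.2, 74.7 and 106 RPKM in the uninjured libraries, the closest approach of the regions, still without overlap. Differences were 1.32 ± 0.21 on the log2 scale on day 3, 2.17 ± 0.21 on day 7, 0.78 ± 0.21 on day 14 (adjusted p = 0.00181), 1.56 on day 21 and 1.67 on day 42, and the difference changed over the days (F test, adjusted p = 0.00484). Quantile normalization gave 2.22, 2.83, 1.66, 2.42 and 2.46 on the 5 days, so that day 14 had the smallest difference there too, at a larger size.

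Tagln, which encodes the actin-binding protein SM22 (chr9:45929619-45936058), had the largest regional difference of all members on day 7 on the log2(RPKM + 1) scale, while by the ratio of means Cnn1 was higher. Its injured libraries then had 152, 184, 289 and 127 RPKM, against 20.2, 24.4, 17.1 and 21.4 RPKM in the uninjured libraries, with A10 again highest in the scar and lowest outside it. The mean was 9.06-fold higher in the scar. Differences on the log2 scale were 1.43 ± 0.21 on day 3, 3.06 ± 0.21 on day 7 (adjusted p = 1.84e-11), 1.73 on day 14, 1.88 on day 21 and 2.42 on day 42, and the F test over days had an adjusted p of 0.000443. After quantile normalization they were 2.03 on day 3, 3.68 on day 7, 2.35 on day 14 and 2.57 on day 21. In the GENCODE M21 annotation, 62.4% of the exonic bases of Tagln overlap the opposite-strand gene Gm48529 and 5.43% overlap Pcsk7. Whether reads were counted by strand is not given in the sources used here, so the reads of these genes cannot be told apart and the Tagln level is uncertain to that extent. Notch3 has such an overlap over 6.03% and Abcc9 over 1.89% of its exonic bases.

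Cnn1, calponin, an actin-binding brake on the contraction of smooth muscle (chr9:22099216-22109630), had the lowest RPKM of the 9 genes in uninjured tissue and, like Tagln, its largest regional difference on day 7. On day 7 injured libraries had 8.98, 12.5, 16.4 and 11.2 RPKM, against 0.562, 1.05, 0.759 and 1.14 RPKM in uninjured libraries, a 14.0-fold higher mean. By day 42 they had 5.66, 5.91, 6.12 and 7.00 RPKM, against 0.856, 0.992, 0.436 and 0.803 RPKM, with no overlap on any day. The log2 difference was 1.42 ± 0.17 on day 3, 2.81 ± 0.17 on day 7 (adjusted p = 1.99e-12), 1.76 on day 14, 1.88 on day 21 and 2.02 on day 42. Because 1 RPKM was added before the logarithm, these understate the change of so low a gene. It too changed over the days (F test, adjusted p = 0.00048).

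Beyond the members, 32 other genes of the contractile apparatus were tested, of which 16 were higher and 9 lower in the scar on day 3 and 23 were higher and 7 lower on day 7. Their median log2 difference was 0.18 on day 3, 0.87 on day 7 and 0.63 on day 42, against 0.06, 0.05 and 0.03 over all genes. Single genes ran from -2.49 to 2.97 on day 3. Their summed level was lower in the scar, 1772 to 2014 RPKM against 2817 to 3307 RPKM in uninjured libraries on day 3. On day 42 it was 1556 to 1747 RPKM against 2657 to 2914 RPKM. The list mixes genes of smooth muscle with genes that cardiomyocytes also use. Myl9, a regulatory light chain of smooth muscle myosin, differed by 0.05 on day 3, which did not pass the test, and by 2.10 on day 42. Actn1, a non-muscle alpha-actinin, was higher by 2.97 on day 3 and 2.40 on day 42, and the fibronectin receptor subunit Itga5 by 2.51 and 0.45. Of 21 other pericyte genes, 10 were higher and 9 lower on day 3, and 9 were higher and 8 lower on day 42. Of all genes, 44.1% were higher and 39.6% lower on day 3, and 40.5% and 38.7% on day 42. The list thus had no single direction and was split much as all genes were. Anpep, a surface peptidase of pericytes, was higher by 2.38 on day 3, Gucy1a3, a subunit of the nitric oxide receptor, was higher by 2.40 on day 42, and Art3 was lower on both days, with differences of -3.29 and -2.24.

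The actin genes were unlike each other. Actg2, the enteric smooth muscle actin, had 16.2 ± 7.84 RPKM in injured and 0.667 ± 0.215 RPKM in uninjured libraries on day 7 (SD, n = 4 each), a log2 difference of 3.27 ± 0.27 (adjusted p = 1.35e-09). Actc1, the cardiac actin, was lower in the scar on every day, by a difference of -2.45 on day 7 and -1.63 on day 42. Acta1, the skeletal actin that stressed cardiomyocytes also make, differed by -1.43 on day 3 and -5.15 on day 42. Its day 3 ranges overlapped, 41.5 to 115 RPKM in injured and 99.5 to 310 RPKM in uninjured libraries. Actb, the cytoplasmic actin, was higher by 1.99 on day 3 and 0.88 on day 42. In a comparison of annotated transcripts, 0.352% of the 50-base windows of Acta2 were shared with any other gene (Actg1 and a pseudogene of it) and 0.4% of those of Myh11 (Myh9 and Myh10).

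Regulators of the contractile program did not move as a block. Of 16 tested, 5 were higher and 8 lower in the scar on day 3, and 7 were higher and 4 lower on day 42. Srf had 7.12 ± 1.27 RPKM in injured and 15.9 ± 2.33 RPKM in uninjured libraries on day 7 (SD, n = 4 each), and its log2 difference ran between -0.69 on day 3 and -1.32 on day 21. Myocd, myocardin, the smooth muscle and cardiac partner of Srf, had 1.96 ± 0.42 RPKM in injured and 13.2 ± 0.64 RPKM in uninjured libraries on that day, with differences between -2.27 on day 7 and -1.10 on day 21. Both were thus lower in the scar on all 5 days (adjusted p at most 1.35e-06), while Acta2, Tagln and Cnn1 were higher on all 5 days. Most cardiomyocyte markers were lower in the scar as well, and the part of those cells in the Srf and Myocd levels was not tested. Any link of Srf and Myocd to the contractile genes was not tested either. Fhl2, a cofactor abundant in cardiomyocytes, differed by -4.06 on day 3 and -2.82 on day 42, while Csrp2, a smooth muscle LIM protein, was higher by 1.97 on day 42.

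Markers of other cells also differed between the regions, not all in the direction of the contractile genes. Of 13 markers of activated fibroblasts, 12 were higher in the scar on day 3 and all 13 on each later day, with median log2 differences of 3.46, 5.40, 4.61, 3.98 and 4.05 on the 5 days. Their summed level in injured libraries was 2282 to 2822 RPKM on day 3, 6208 to 7822 RPKM on day 7, 2958 to 4316 RPKM on day 14, 2684 to 3493 RPKM on day 21 and 1662 to 2591 RPKM on day 42, against 101 to 497 RPKM over all uninjured libraries. Like Acta2, Tagln and Cnn1, this sum was highest on day 7. So was the sum of macrophage markers in the scar, 1650 to 2579 RPKM on day 7 and 1050 to 1565 RPKM on day 3. Other pericyte genes summed to 320 to 354 RPKM in the scar on day 7, overlapping day 14 (289 to 336 RPKM). A day 7 peak was thus not limited to the fibroblast list. Postn, the matricellular protein of activated fibroblasts, had 1021 ± 160 RPKM in injured and 108 ± 28.7 RPKM in uninjured libraries on day 7, and 169 ± 11.8 RPKM in injured and 44.3 ± 26.0 RPKM in uninjured libraries on day 42 (SD, n = 4 each). Of 12 endothelial markers, 4 were higher and 3 lower in the scar on day 3, and 2 were higher and 10 lower on day 7; Pecam1 differed by 0.37 on day 3 and -1.10 on day 7. Endothelial markers summed to 294 to 347 RPKM in injured and 260 to 291 RPKM in uninjured libraries on day 3, and to 163 to 191 RPKM in injured and 309 to 336 RPKM in uninjured libraries on day 7. Of 10 macrophage markers, 10 were higher on day 3 and 9 on day 7, with sums of 697 to 2579 RPKM over all injured and 283 to 452 RPKM over all uninjured libraries. No marker list was at or near 0 in either region, and the part of these cells in the levels of the 9 genes was not tested.

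**Figure D3:**
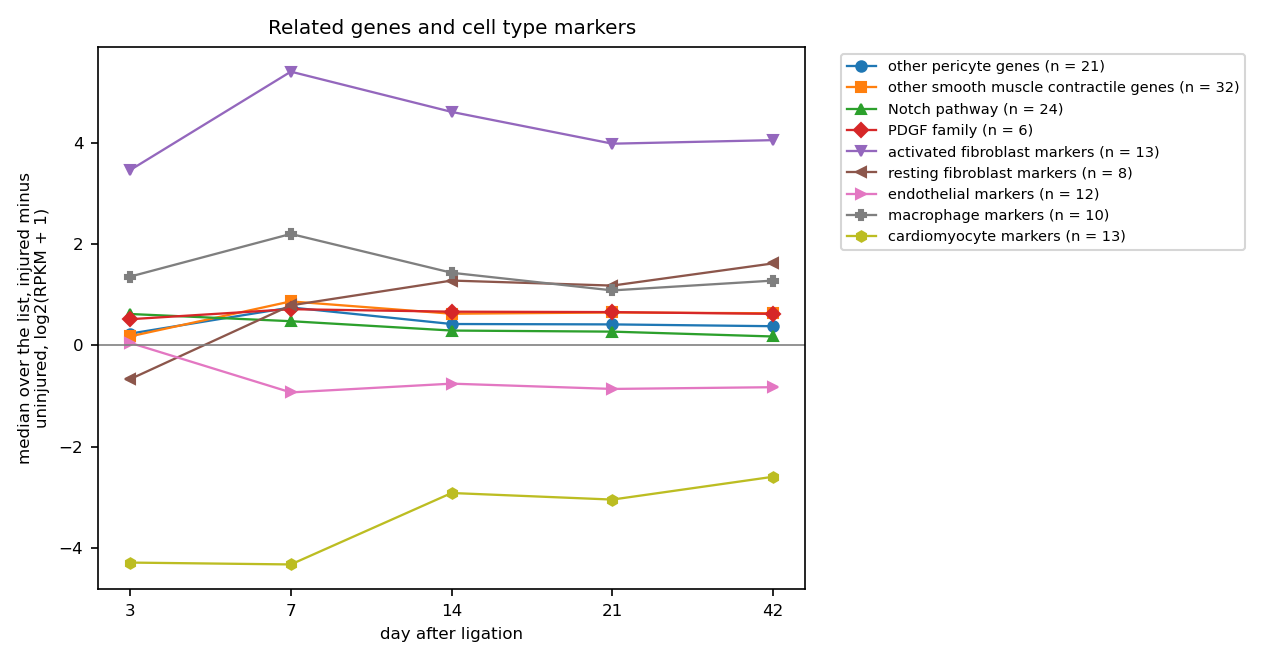
Median difference between injured and uninjured libraries in log2(RPKM + 1) (y axis) over the tested genes of each list, by day after ligation (x axis). Activated fibroblast markers peak at 5.40 on day 7 and cardiomyocyte markers lie between -4.32 and -2.59, while the medians of other pericyte and other contractile genes lie between 0.18 and 0.87.

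Ratios of members within a library do not depend on the scaling between libraries. The log2 ratio of Acta2 to Myh11 in the scar averaged 4.91 ± 0.07 on day 3, 4.48 ± 0.53 on day 7, 2.66 ± 0.36 on day 14, 2.51 ± 0.11 on day 21 and 2.26 ± 0.29 on day 42 (SD, n = 4 each). Uninjured tissue averaged 2.51 ± 0.33, 2.69 ± 0.34, 2.70 ± 0.51, 2.25 ± 0.17 and 2.38 ± 0.24 on those days. Scars of days 3 and 7 were apart from uninjured tissue, with all 8 mice higher in the scar, and on days 14, 21 and 42 the ranges of the regions overlapped. On day 21 the ratio was higher in the scar in 4 of 4 mice, by 0.26 ± 0.15 (SD), and on days 14 and 42 in 2 of 4 mice, with differences of -0.05 ± 0.54 and -0.12 ± 0.33. Over the 20 mice the ratio was higher in the scar by 0.86 ± 1.15 (SD, n = 20; 16 of 20 mice; two-sided sign-flip permutation test, p = 0.00322, adjusted over 9 ratio tests 0.00966). Without the mice of day 3 the difference was 0.47 and p = 0.0535 in that permutation test. Within the scar, day 42 was lower than day 7 by a difference of -2.22, with no overlap. Exact permutation of 4 and 4 libraries, two-sided, gave p = 0.0286, the smallest this design allows (adjusted 0.0429). That separation and p followed from the single genes. Acta2 was at least 241 RPKM on day 7 and at most 209 RPKM on day 42. Myh11 was at most 17.1 RPKM on day 7 and at least 31.7 RPKM on day 42. This test thus adds nothing to those results. Day 7 differed from day 3 by -0.42 (exact permutation p = 0.143).

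The ratio of Tagln to Myh11 was higher in the scar in 20 of 20 mice, by 1.50 ± 1.02 on the log2 scale (SD, n = 20; permutation p = 1e-05, the smallest 100000 resamples can give; adjusted 4.5e-05). It averaged 3.39, 3.68, 1.72, 1.48 and 1.33 in the scar on the 5 days and 0.86, 0.95, 0.78, 0.86 and 0.64 in uninjured tissue, so that a gap persisted at day 42 (0.69 ± 0.25, SD, n = 4). In the scar this ratio too was lower on day 42 than on day 7, by a difference of -2.35 (p = 0.0286 by exact permutation, adjusted 0.0429). That result also followed from the single genes. Tagln was at least 127 RPKM on day 7 and at most 98.7 RPKM on day 42, and Myh11 rose without overlap. Of the pericyte genes, Rgs5 relative to Pdgfrb was lower in the scar in 20 of 20 mice. The difference was -3.10 ± 0.34 (SD, n = 20, permutation p = 1e-05, adjusted 4.5e-05). This direction and p followed from the single genes, as Rgs5 was lower and Pdgfrb higher in the scar in all 20 mice. The test thus adds nothing to those results. The scar means of that ratio were -0.08, 0.77, 0.69, 0.22 and 0.46 on the 5 days, against 3.22, 3.61, 3.55, 3.46 and 3.72 in uninjured tissue. Day 7 was higher than day 3 in the scar by 0.85 (exact permutation p = 0.0286, adjusted 0.0429).

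**Figure D4:**
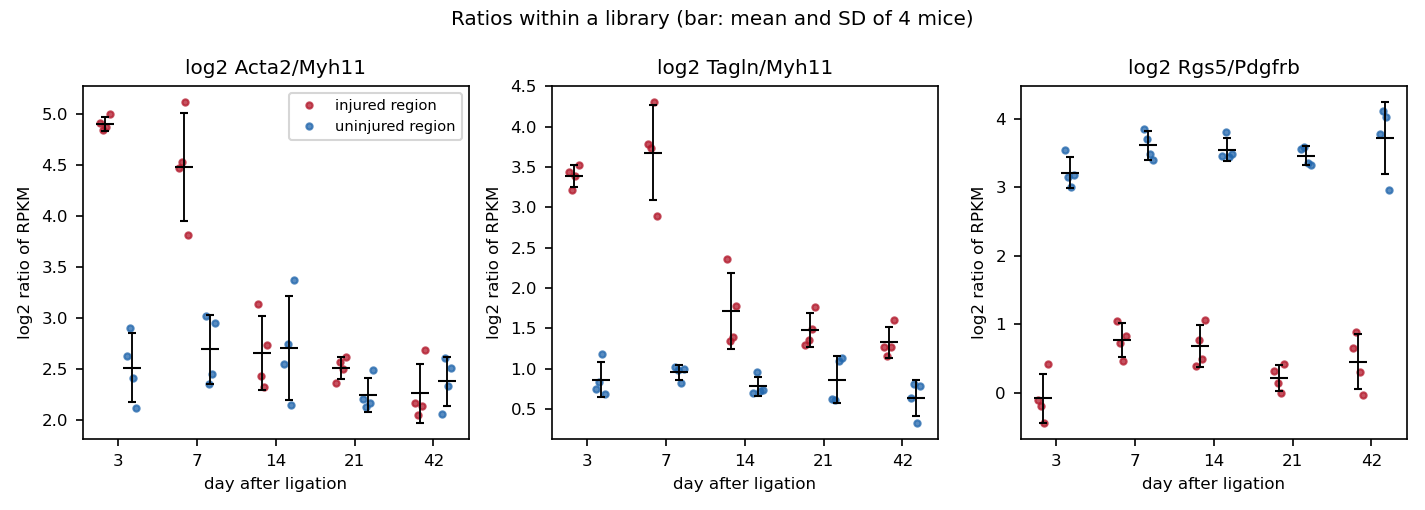
Log2 ratio of RPKM within each library (y axis) for 3 pairs of genes by day after ligation (x axis), injured in red (left) and uninjured in blue (right), with the mean ± SD of 4 mice in black. Acta2/Myh11 in the scar is 4.91 on day 3 and 2.26 on day 42, its range overlaps that of uninjured tissue from day 14 on, and Rgs5/Pdgfrb is lower in the scar on all days.

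Within the scar, 7 of the 9 genes rose between day 3 and day 7 and none fell, against 60.4% of all genes called, 27.7% that rose and 32.7% that fell. Rgs5 rose most, by 1.53 ± 0.14 on the log2 scale (mean 123 RPKM on day 7 and 42.3 RPKM on day 3, adjusted p = 3.85e-08). Tagln rose by 1.30, Cnn1 by 0.98, Myh11 by 0.92, Pdgfrb by 0.69, Acta2 by 0.59 and Notch3 by 0.38. The Acta2 step had an adjusted p of 0.0208 and was lost without mouse A7 of day 3 (0.49, adjusted p = 0.0717) or mouse A10 of day 7 (0.36, adjusted p = 0.0969). Abcc9 had a difference of 0.00 and Cspg4 of 0.22, neither of which passed the test. Markers moved in the same step: 11 of 13 activated fibroblast markers rose and 10 of 12 endothelial markers fell. Summed macrophage markers were 1050 to 1565 RPKM on day 3 and 1650 to 2579 RPKM on day 7. Summed resting fibroblast markers were 282 to 354 RPKM on day 3 and 1038 to 1287 RPKM on day 7. The part of any of these lists in the rises of the members was not tested.

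Between day 7 and day 14 the contractile genes of the scar parted. Acta2 fell by 1.03 on the log2 scale (mean 155 RPKM on day 14 and 328 RPKM on day 7, adjusted p = 0.000668), Tagln fell by 1.16 and Cnn1 fell by 0.81, while Myh11 rose by 0.75 (mean 24.4 RPKM on day 14 and 14.2 RPKM on day 7, adjusted p = 0.00022) and Abcc9 by 0.29 (adjusted p = 0.0296). The 2 that rose and 3 that fell stand beside 43.1% of all genes called, 21.9% that rose and 21.2% that fell. The Abcc9 step was lost without any one of mice A9 and A10 of day 7 and A6 and A11 of day 14 (0.21 to 0.26), and in a fit of the 8 libraries of these days alone. In this step 12 of 13 activated fibroblast markers fell and all 13 cardiomyocyte markers rose. By day 14, summed macrophage markers were lower, at 742 to 1060 RPKM, and summed resting fibroblast markers higher, at 1973 to 2506 RPKM. The part of any of these lists in the steps of the members was not tested.

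No member passed the test between day 21 and day 14 in the scar, and no gene of the table did (0 called by limma, with 1496 at an unadjusted p under 0.05). Myh11 had a difference of 0.42 in that step (adjusted p = 0.241). Rgs5 had a difference of -0.31 (adjusted p = 0.366), with 75.02 to 84.6 RPKM on day 21 and 88.1 to 129 RPKM on day 14, so that the 2 groups did not overlap. On day 42, Notch3 fell by 0.87 relative to day 21 (mean 7.71 RPKM on day 42 and 14.9 RPKM on day 21, adjusted p = 1.27e-05), without overlap of the 2 groups. Cspg4 fell by 0.53, Pdgfrb fell by 0.48 and Abcc9 fell by 0.30 in that step, against 24.8% of all genes called and 13.6% that fell, and Rgs5 and the 4 contractile genes did not pass the test. Of 13 activated fibroblast markers, 7 fell in that step and none rose, with a median of -0.59. Of 13 cardiomyocyte markers, 2 rose and none fell, with a median of 0.43. The part of either list in these falls was not tested. The Abcc9 fall (adjusted p = 0.0407) was lost without any one of 6 of its 8 mice and after scaling to a common library median. Over all 5 days the level in the scar changed for all 9 genes (F test), as it did for 87.6% of all genes. Without day 42, whose animals carry the B labels, the F test no longer passed for Abcc9 (adjusted p = 0.0514) and Cspg4 (adjusted p = 0.0836).

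Uninjured tissue also changed over the days. Between day 3 and day 7, Rgs5 rose by 0.40 (mean 275 RPKM on day 7 and 208 RPKM on day 3, adjusted p = 0.00612), against 10.4% of all genes that rose and 25% called in either direction. Cnn1 fell by 0.41, Myh11 fell by 0.41 and Abcc9 fell by 0.37, against 14.5% of all genes that fell, and scaled to the recovered totals, which moved the median of all genes to 0.11 from -0.03, none of these 3 falls passed the test. The Abcc9 fall was also lost after quantile normalization (-0.20) and without mouse A8 of day 3 or mouse A7 of day 7 (-0.32 and -0.34), that of Myh11 without any one of 6 of its 8 mice and that of Cnn1 without any one of 5 or with Xist detection as a covariate. In the same step 7 of 13 cardiomyocyte markers fell and none rose (median -0.44), as did 2 of the 3 channel partners of Abcc9. Day 14 differed from day 7 for Abcc9, which rose by 0.35 (adjusted p = 0.0323), against 7.49% of all genes that rose and 5.56% that fell, and this call too was lost under quantile normalization (0.16) and both other scalings, and without mouse A7 or A12 of day 7 or mouse A5 or A6 of day 14. In that step 5 of 13 cardiomyocyte markers and all 3 channel partners rose and none fell. The part of cardiomyocytes in the Abcc9 steps was not tested. No member passed the test between days 21 and 14, where 1 gene of the whole table did (0.00878%, with 573 genes at an unadjusted p under 0.05). Acta2 had a difference of -0.50 in that step (limma adjusted p = 0.943). Its 2 groups did not overlap, with 48.2 to 71.3 RPKM on day 21 and 74.7 to 106 RPKM on day 14.

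On day 42 levels in uninjured tissue were lower than on day 21 for 6 members, against 10.1% of all genes that fell: Tagln fell by 0.69 (adjusted p = 0.00761), Pdgfrb by 0.52, Cspg4 by 0.46, Myh11 by 0.46, Cnn1 by 0.40 and Rgs5 by 0.28. The Tagln call held in every alternative and in every fit without 1 mouse, and the Myh11 call was lost without mouse A10 of day 21 (-0.40, adjusted p = 0.0585) or mouse B3 of day 42 (-0.39, adjusted p = 0.0634). The other 4 calls were less stable, and all 4 were lost in a fit of the 8 libraries of these days alone, with adjusted p of 0.076 for Pdgfrb, 0.105 for Cspg4, 0.0978 for Rgs5 and 0.0828 for Cnn1. Pdgfrb was also lost after quantile normalization (adjusted p = 0.0662) and without mouse B3 or B9 of day 42. Cspg4 was lost at the recovered totals (adjusted p = 0.0735) and without mouse A10 or A11 of day 21 or B1, B3 or B9 of day 42. Rgs5 was lost after quantile normalization (-0.09), at a common library median (adjusted p = 0.0682), and without mouse A3 or A4 of day 21, B1, B3 or B12 of day 42, or A5 of day 3 or of day 14. Cnn1 was lost with 0.1 RPKM added, with the filter at 5 RPKM, at a common library median, at the recovered totals, without trend and robust moderation (adjusted p of 0.0509 to 0.0687), and without any one of 6 of its 8 mice or of 8 mice of other days. Of 13 activated fibroblast markers 4 fell in this step, as did 5 of 12 endothelial markers, and none of either list rose. Their part in the falls of the members was not tested. Over the 5 days, 7 of the 9 changed in uninjured tissue (F test; 47.2% of all genes), all but Cspg4 (adjusted p = 0.0669) and Notch3 (adjusted p = 0.134); without day 42 the test passed for Abcc9 and Rgs5 alone. The Pdgfrb test (adjusted p = 0.0321) was also lost after quantile normalization (adjusted p = 0.135) and without any one of 5 mice, A4 and A11 of day 21 and B1, B3 and B9 of day 42 (up to 0.108), and that of Cnn1 (adjusted p = 0.0245) at the recovered totals (0.056) and without mouse B9 (0.0573). Mouse B12 of day 42 stood above the other 3 in uninjured Pdgfrb, Cspg4 and Notch3; without it the F tests of Cspg4 and Notch3 passed, with adjusted p of 0.00328 and 0.0303, and so did the fall of Notch3 between days 42 and 21 (-0.46, adjusted p = 0.0142).

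The order of the group means sums up the patterns. For Abcc9 and Rgs5, all 5 uninjured means were above all 5 injured means, with no overlap at the boundary between the regions. For Pdgfrb, Acta2, Tagln and Cnn1 all 5 injured means were above all 5 uninjured ones, again without overlap at the boundary. Cspg4 and Notch3 had the same order but overlapped there, the injured libraries of day 42 with the uninjured ones of day 21. How common such orders are among all genes tested was not determined. Of those genes, 79.2% to 84% were called between the regions on each day, so whether the orders set these members apart is not known. For Myh11 the injured means of day 21 (33.2 RPKM), day 42 (32.6 RPKM) and day 14 (24.4 RPKM) came first, the first pair overlapping, and the injured mean of day 3 (6.98 RPKM) came last, with all uninjured means and the injured mean of day 7 between. The highest group mean was 4.75 times the lowest within the scar for Myh11, 2.91 times for Rgs5, 2.58 times for Tagln and at most 2.15 times for the others, and within uninjured tissue it was at most 1.91 times for any of the 9.

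Profiles over the 40 libraries were compared by the root mean square difference of log2(RPKM + 1) after each gene was centred on its own mean, as a description that mixes regions and days. The closest pairs were Tagln with Cnn1 (0.24), Cspg4 with Notch3 (0.25), Notch3 with Pdgfrb (0.31) and Pdgfrb with Cspg4 (0.36). Among the members, Acta2 was nearest to Cnn1 (0.40), and Abcc9 to Rgs5 (0.56). Among all genes tested, Cnn1 ranked 171 in closeness to Acta2 and Rgs5 ranked 810 in closeness to Abcc9. Tagln and Cnn1 each ranked 1 for the other. Myh11 had no close partner among the members, with 0.62 to Cspg4 as its smallest distance. The farthest pair was Abcc9 with Tagln (2.36). In the whole table, the 3 genes nearest to Abcc9 were Magix (0.20), the mitochondrial complex I subunit Ndufb11 (0.22) and the mitochondrial phosphate carrier Slc25a3 (0.22). Rgs5 was nearest to Amacr, Ube2b and Narf (0.32 to 0.34), Pdgfrb to App, Npdc1 and Ptprs (0.19 to 0.20), Cspg4 to Chst14, Pias3 and Man1c1 (0.19), and Notch3 to Fam189b, BC017643 and Sh3pxd2a (0.19 to 0.21). Myh11 was nearest to Susd5, Lrp4 and the integrin subunit Itga8 (0.24 to 0.27), Acta2 to the tropomyosin Tpm2, Slc29a3 and the actin crosslinker Flna (0.29 to 0.30), Tagln to Cnn1, Actg2 and Dap (0.24 to 0.31), and Cnn1 to Tagln, Pappa and Il10ra (0.24 to 0.27).

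**Figure D5:**
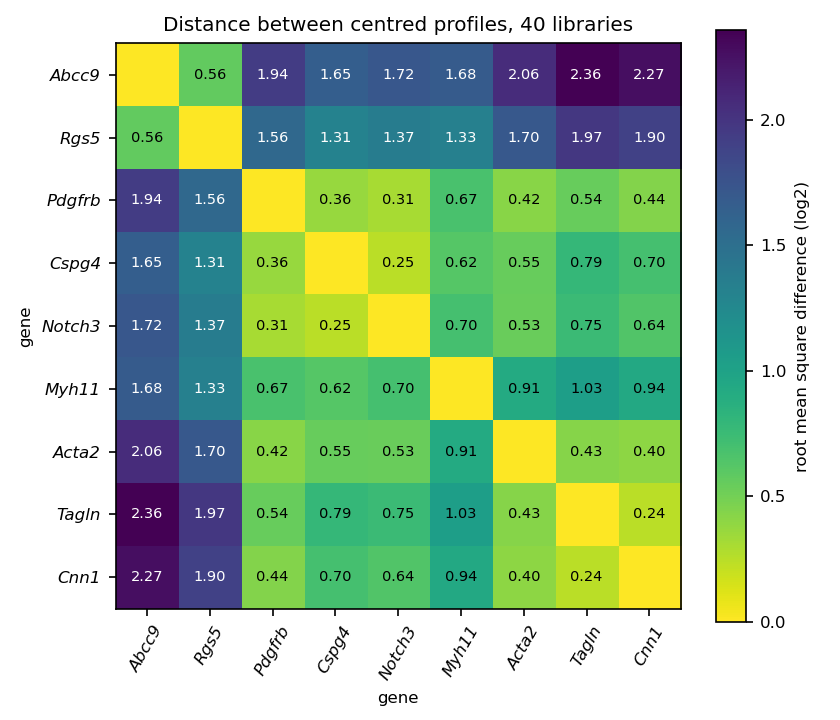
Root mean square difference (colour and printed value, log2 scale) between the centred profiles of each pair of the 9 genes over 40 libraries; genes run along both axes. Abcc9 and Rgs5 lie far from the other 7, and Tagln with Cnn1 (0.24) and Cspg4 with Notch3 (0.25) are the closest pairs.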

How the data were processed

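Both regions of 20 mouse hearts gave 40 libraries. RNA was purified with RNeasy Mini columns and made into libraries with an Illumina TruSeq RNA kit, per the labels' protocols. The authors deposited 1 table of RPKM values. The submitters' processing notes name STAR, edgeR and mm10 with neither version nor role, and the counting method is not given in the sources used here. Whole reads were recovered from the steps of the RPKM for 99.9% of the 11450 genes (within 0.01 read), with a median of 576 reads per gene and library, and gave the depths.

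The filter asked for 1 RPKM or more in at least 4 libraries and left 11390 genes, which were tested on log2(RPKM + 1) with limma 3.58.1 (R 4.3.3, trend and robust moderation). Regions were compared by day in a model of all 40 libraries that blocked on the mouse. Days were compared within a region over its 20 libraries. Both models had 15 residual degrees of freedom. Adjustment was by the Benjamini-Hochberg method over every gene tested, with calls under 0.05. Pairing by mouse follows from the design text, by which both regions of a heart were taken, and deviations from group means correlated at 0.148 to 0.54 within the 20 mice. Ratios used permutation tests (SciPy 1.17.1). The procedure was tested on simulated data. RPKM are not counts, so no count test was run. Positions are from GENCODE M21 (mm10).

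The 9 genes and 14 gene lists were chosen with earlier results of these data known. From each list, genes were named by the 2 largest regional differences on day 3 and the 2 on day 42, beside fixed partners of the members and the 3 genes nearest to each. List counts have no test and use the deposited scaling. Alternatives were pseudocounts of 0.1 and 0.5, other filters, scalings and moderation, Xist as a covariate, fits of single days, no block or a random one, each mouse left out and, chosen after seeing the data, F tests without day 42.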

Additional observations from a re-analysis of the deposited data

Results flagged for a closer look

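The difference between injured and uninjured tissue changed over the days for 7 of the 9 genes (limma F test of region by day on 40 libraries), with adjusted p values of 6.78e-05 for Rgs5, 0.000449 for Pdgfrb, 2.75e-06 for Notch3, 1.73e-09 for Myh11, 0.00484 for Acta2, 0.000443 for Tagln and 0.00048 for Cnn1, where 74.3% of all genes passed. Myh11 alone of these changed direction.

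In 90 groups of 4 libraries a single library stood apart from the other 3 in 2 cases by Dixon's criterion, which chance meets in about 1 group in 20. Mouse A12 of day 7 had 7.80 RPKM of Cspg4 in uninjured tissue, above the 5.64 to 5.77 RPKM of the other 3 mice. Mouse A7 of day 3 had 59.3 RPKM of Tagln in the scar, below the 76.3 to 79.2 RPKM of the others.

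Among 30 groups of within-library log2 ratios, the same criterion was met by the highest uninjured library of day 14 for Tagln/Myh11, at 0.96, and by the highest uninjured library of day 14 for Rgs5/Pdgfrb, at 3.81.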

How the results depend on the processing

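Of 1395 regional values of the 9 genes under alternatives, 1393 kept their direction and side of the threshold, and 2, both Myh11 on day 7, lost the call. Without the replicate block (the mouse), all 54 paired results of the members kept theirs, the largest adjusted p of a regional difference being 0.0153, and 4939 genes were higher in the scar on day 3, against 5021. Over all 144 results and 4374 values, day steps included, 4237 kept both, 99 lost and 10 gained a call, and 28 changed sign, none of them called as reported. The cause of these shifts was not tested. Depth limits no member strongly, with Cnn1 the lowest at 18 reads in a library.

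Signs that changed in uncalled steps were these. Scaled to recovered totals, Abcc9 between days 7 and 3 in the scar was -0.081, Myh11 between days 42 and 21 in the scar 0.0044 (0.024 at a common library median), Cspg4 between days 7 and 3 in uninjured tissue 0.10, and Rgs5 between days 14 and 7 there -0.014. Quantile normalization gave -0.11 for that Rgs5 step and 0.029 for uninjured Abcc9 between days 42 and 21. Leaving out 1 mouse gave ranges across 0 in the scar for Abcc9 between days 7 and 3 (-0.086 to 0.067), Cspg4 between days 14 and 7 (-0.20 to 0.014) and Myh11 between days 42 and 21 (-0.13 to 0.060). In uninjured tissue they were Pdgfrb between days 7 and 3 (-0.065 to 0.049), Cspg4 between days 14 and 7 (-0.14 to 0.030) and, between days 21 and 14, Cnn1 (-0.046 to 0.18), Tagln (-0.11 to 0.20), Myh11 (-0.17 to 0.051) and Pdgfrb (-0.028 to 0.10).

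Counts over all genes moved more. With at least 5 RPKM, which leaves fewer genes to test, 3100, 3113 and 3057 genes were higher in the scar on days 14, 21 and 42, against 4831, 4906 and 4611. Scaled to recovered totals, 2830, 3037, 3008 and 2732 were lower on days 3, 14, 21 and 42, against 4513, 4608, 4665 and 4409, and 6948 were higher on day 42. In uninjured tissue, day 14 against day 7 had 853 higher and 633 lower genes. There were 524 higher after quantile normalization, 549 at a common median, 1493 with Xist as a covariate, 269 higher and 1121 lower at recovered totals, and 390 lower with at least 5 RPKM. Day 7 against day 3 had 1186 higher and 1656 lower, and 2808 and 538 at recovered totals. Day 42 against day 21 had 1186 higher and 1153 lower, with 677 higher at 5 RPKM and 625 lower in the 8 libraries alone, where day 21 against day 14 had 0 higher. Leaving out 1 mouse gave 0 to 21 higher and 0 to 4 lower genes in the scar between days 21 and 14, most without A5 of day 14. In uninjured tissue it gave 781 to 1270 higher and 924 to 1782 lower genes between days 7 and 3, 244 to 1058 and 357 to 749 between days 14 and 7, and 645 to 1593 lower genes between days 42 and 21. The Acta2/Myh11 difference between regions was 0.47 without the mice of day 3.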

Other observations

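Genes that signal between endothelium and mural cells split between the regions. Of 14 tested, 9 were higher and 2 lower in the scar on day 3, and 8 were higher and 6 lower on each later day. Tgfb1, which induces contractile genes in mural cells, was higher by 2.22 on day 3 and 0.78 on day 42. Angpt1, the ligand by which mural cells steady endothelium, had differences of -3.17 on day 3 and -1.06 on day 42, and its antagonist Angpt2 was higher by 1.42 and 1.84.

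Of 8 markers of resting fibroblasts, 3 were higher and 4 lower in the scar on day 3, and 7 were higher and none lower on day 42, with median log2 differences of -0.67 and 1.62. Among the cardiomyocyte markers, Myh7, the slow cardiac myosin, was the 1 gene higher in the scar on day 14 (1.75) and day 42 (1.67).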
